A study of Mus musculus with 4 samples.

Results

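The data compare the transcriptomes of 2 kinds of edited C3H10T1/2 cells, mouse mesenchymal stem cells kept as a line, which under suitable stimuli become fat, cartilage, bone or muscle cells. On one side are 2 clones, 1 and 5, in which Dnmt3a and Dnmt3b were knocked out together (DKO). On the other is a line whose Prdx1 gene carries a CRISPR edit where intron 5 meets the next exon, at the splice acceptor (PRDX1MT, clone 10 in its library name, with PRDX1-KO as its genotype label). These 3 libraries, of 4 in the series, make up the comparison, which runs across all genes and keeps the differences in which both clones lie on the same side of PRDX1MT. The fourth library, from unedited cells (WT), is given beside them as a level. It also took part in the filtering, scaling and fit of the main test. All cells were grown in one medium with serum and had no further treatment in the labels. Whether the DKO clones carry the Prdx1 edit as well is not in the labels. Each edited line is a clone with 1 library. The p-values therefore rest on the spread of the 2 DKO clones, in the gene itself and, with more weight, pooled over genes. The series asks how Mmachc, the gene next to Prdx1, is silenced by transcription that runs into its promoter.

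Dnmt3a and Dnmt3b are the de novo DNA methyltransferases, which place methyl groups on cytosines of CG dinucleotides that carry none. Dnmt1 then copies the marks at each cell division. Methylation of a promoter rich in CG goes with silence of its gene, as on the inactive allele of imprinted genes, while methylation along the body of a gene goes with active transcription. Prdx1 encodes an abundant peroxiredoxin that removes peroxides, and Mmachc encodes an enzyme that processes cobalamin.

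Levels are given as CPM, read counts divided by library size and by a TMM factor, which corrects for differences in RNA composition. The libraries held 27570136 reads for PRDX1MT, 34901511 and 27789693 for DKO clones 1 and 5, and 37685798 for WT, and 3 reads, the most that a count of 0 allows, were worth 0.0729 to 0.121 CPM. Mitochondrially encoded genes took 0.519% of reads in PRDX1MT, 2.05% and 0.871% in the clones, and 2.08% in WT. Of the 10 surface markers of mesenchymal stem cells, all had reads in every library, with summed levels of 1946 CPM in PRDX1MT, 2404 and 2276 CPM in the clones, and 1784 CPM in WT, although Thy1 was at 0.884 CPM in PRDX1MT, 0.757 and 1.38 CPM in DKO clones 1 and 5, and 28.97 CPM in WT. Summed levels of the 8 epithelial, 8 immune and 8 muscle markers stayed between 1.09 and 18.3 CPM. The 8 endothelial markers summed to 39.8 CPM in PRDX1MT and 16.4 and 14.9 CPM in the clones, most of it Tek and Erg, with Cdh5, Kdr, Tie1 and Emcn at 0 to 2 reads per library. The 8 neural markers summed to 232 CPM in PRDX1MT and 94.8 and 204 CPM in the clones.

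The labelled genes were read first. Prdx1 (chr4:116685544-116700822, mm10) was at 31.2 CPM in PRDX1MT, 392 and 332 CPM in DKO clones 1 and 5, and 399 CPM in WT. The PRDX1MT library was thus the low one, and both clones were near WT (DKO over PRDX1MT 11.7-fold, log2 difference 3.54 ± 0.59 (SE), edgeR adjusted p = 0.0987). Dnmt3a was at 80.9 CPM in PRDX1MT, 31.4 and 25.9 CPM in DKO clones 1 and 5, and 43.7 CPM in WT, and Dnmt3b was at 3.74 CPM in PRDX1MT, 2.83 and 2.03 CPM in DKO clones 1 and 5, and 3.28 CPM in WT. Dnmt3a was lower in both clones than in PRDX1MT by more than 2-fold, with an edgeR adjusted p of 0.564. A read total over a whole gene does not show a small edit, so these values do not test the knockouts.

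Across 19446 tested genes, most genes called between DKO and PRDX1MT were lower in DKO. edgeR's quasi-likelihood test called 40 genes at an adjusted p under 0.05. Of these, 38 (0.195% of genes tested) were lower in DKO and 2 (0.0103%) were higher, and in all 40 both clones lay on the called side. Of the 38 genes, 10 had no read in either clone, and all but Meg3 code for protein. In 12 of the 38, WT was 2-fold or more below PRDX1MT, in 21 within 2-fold of it and in 5 above that. In none was WT within 2-fold of both clones. Among the genes that fell were Sfrp1, Rspo3, Slit3, Gas6, Col8a2, Trpv4 and Tiam1. The calls lean on the assumption that the PRDX1MT library varies as the clones do, and their number went from 0 to 404 over 8 other settings. Sfrp1, Slit3, Cers4, Gas6, Adcy1 and 5730409E04Rik were called in 7 of those 8, all but a filter of 1 CPM in 2 libraries. Others held in 3 of the 8, among them Rspo3, Ltbp4, Myl9, Erg, Trpv4, Piezo2, Prex2, Tiam1, Mark1 and Pcsk6. In bulk RNA, fewer cells that express a gene and less RNA per cell cannot be told apart.

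**Figure D1:**
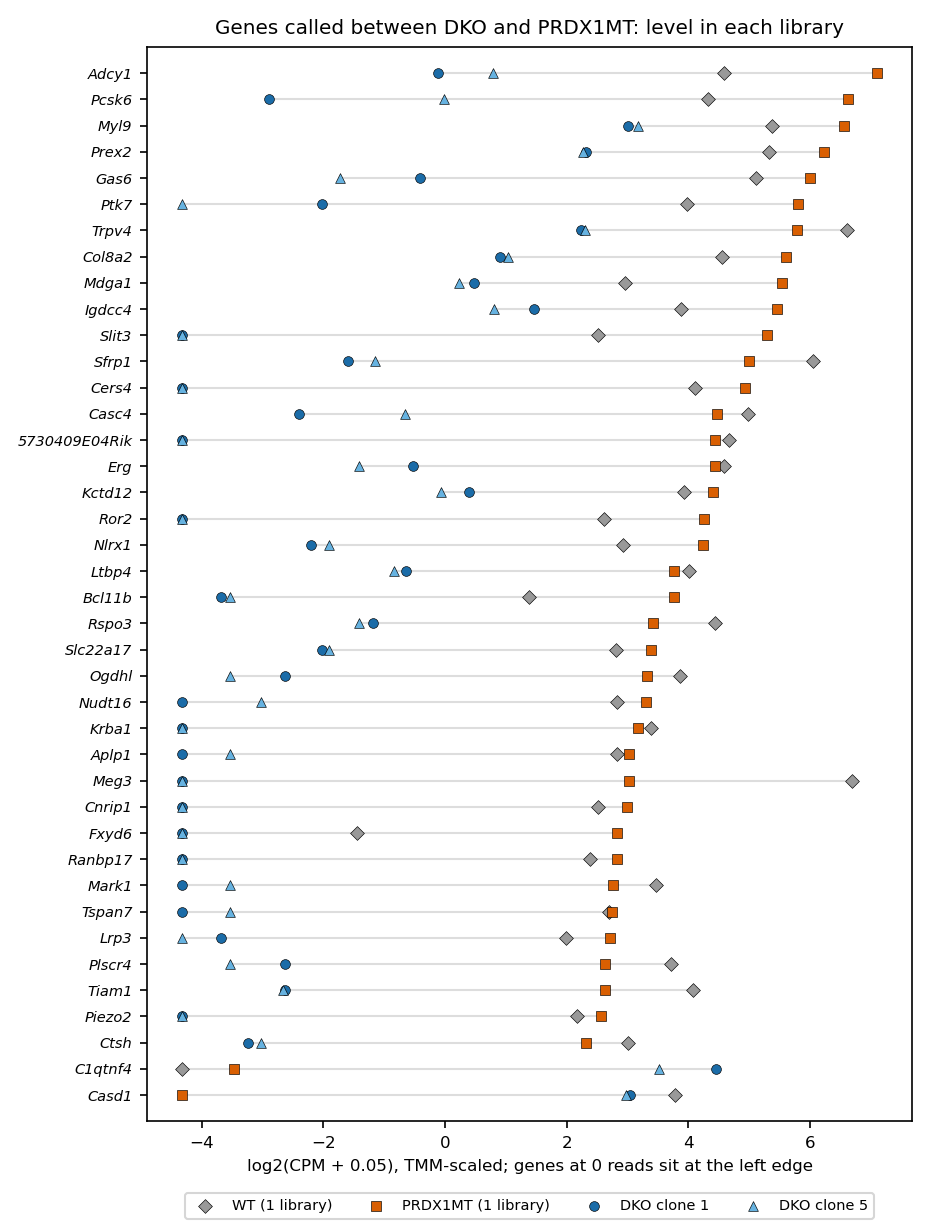
Level of each of the 40 called genes in each library, as log2 of TMM-scaled CPM plus 0.05, with genes ordered by their level in PRDX1MT. In the 38 upper rows both DKO clones (circle and triangle) lie to the left of PRDX1MT (square), and in the 2 lowest rows, C1qtnf4 and Casd1, they lie to its right; the diamond is WT.

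Promoter sequences show how unlike each other the starts of these genes are in the CG dinucleotides that the knocked-out enzymes act on. RefSeq windows (GRCm38.p6, 250 bases before to 50 after a start, 5′ to 3′ on the strand of the gene) were found for 32 of the 38 genes that fell and for Casd1. Each CG is in capitals below. Slit3 (chr11:35121206-35121505, plus strand, 41 CG) and Ror2 (chr13:53286075-53286374, minus strand, 32 CG) had 0 reads in both clones and are dense in CG, and Ptk7 (chr17:46629455-46629754, minus strand, 22 CG) is close to the typical window. Nlrx1 (chr9:44268550-44268849, minus strand, 5 CG) is at the sparse end of the genes that fell, and Casd1 (chr6:4600661-4600960, plus strand, 23 CG) moved the other way, with 0 reads in PRDX1MT.
Slit3 promoter: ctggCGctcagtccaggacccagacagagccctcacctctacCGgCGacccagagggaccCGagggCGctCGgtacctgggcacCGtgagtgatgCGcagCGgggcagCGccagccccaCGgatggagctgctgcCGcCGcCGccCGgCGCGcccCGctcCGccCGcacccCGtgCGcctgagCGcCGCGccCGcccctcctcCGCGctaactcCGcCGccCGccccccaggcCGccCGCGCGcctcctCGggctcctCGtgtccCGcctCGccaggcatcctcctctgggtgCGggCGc
Ror2 promoter: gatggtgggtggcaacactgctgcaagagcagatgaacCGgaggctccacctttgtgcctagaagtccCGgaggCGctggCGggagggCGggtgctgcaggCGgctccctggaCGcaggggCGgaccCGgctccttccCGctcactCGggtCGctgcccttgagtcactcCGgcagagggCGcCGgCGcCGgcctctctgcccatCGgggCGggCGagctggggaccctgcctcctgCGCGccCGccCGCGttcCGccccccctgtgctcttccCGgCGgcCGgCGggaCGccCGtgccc
Ptk7 promoter: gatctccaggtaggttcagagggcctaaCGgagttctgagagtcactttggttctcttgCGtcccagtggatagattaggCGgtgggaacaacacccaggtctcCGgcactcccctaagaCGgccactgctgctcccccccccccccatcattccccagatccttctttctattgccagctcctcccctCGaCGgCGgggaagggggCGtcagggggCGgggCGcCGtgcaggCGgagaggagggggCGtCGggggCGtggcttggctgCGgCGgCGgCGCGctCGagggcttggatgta
Nlrx1 promoter: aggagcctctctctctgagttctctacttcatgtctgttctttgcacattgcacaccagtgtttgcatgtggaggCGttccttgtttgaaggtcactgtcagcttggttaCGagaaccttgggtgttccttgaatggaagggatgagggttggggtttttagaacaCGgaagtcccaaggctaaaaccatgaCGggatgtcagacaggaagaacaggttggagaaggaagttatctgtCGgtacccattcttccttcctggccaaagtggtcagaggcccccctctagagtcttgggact
Casd1 promoter: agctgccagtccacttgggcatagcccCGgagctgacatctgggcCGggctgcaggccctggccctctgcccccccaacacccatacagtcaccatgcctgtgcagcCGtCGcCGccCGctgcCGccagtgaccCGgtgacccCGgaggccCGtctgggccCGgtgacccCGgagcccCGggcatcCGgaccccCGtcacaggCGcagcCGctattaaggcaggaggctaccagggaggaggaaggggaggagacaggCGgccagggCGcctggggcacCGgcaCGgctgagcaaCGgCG
The 32 windows of genes that fell held 5 to 64 CG with a median of 22.5, against a median of 20 over the 11561 tested genes with a window, of which 99.2% held at least 1. At least 10 CG were found in 27 of the 32 (84.4%) and in 77.5% of all windows. Promoters with many and with few CG were thus both among the genes that fell. Methylation was not measured in these libraries, and the RefSeq starts of Slit3 and Casd1, 250 bases into their windows, lie 232 and 72 bases from the GENCODE gene starts. Among the 32 windows, those of Tiam1 (7 CG) and Mdga1 (28 CG) have starts 169070 and 82205 bases from the GENCODE ones.

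Secreted modulators and receptors of Wnt signalling were among the genes that fell in DKO. Wnt ligands bind Frizzled receptors with Lrp5 or Lrp6, secreted Sfrp proteins hold them back, R-spondins strengthen the signal, and Ror2 and Ptk7 are receptors of the branch that works without beta-catenin, for which Wnt5a is a ligand. Sfrp1 (chr8:23411502-23449632) was at 31.9 CPM in PRDX1MT, 0.280 and 0.400 CPM in DKO clones 1 and 5, and 66 CPM in WT. It fell by 96.1-fold (log2 difference -6.55 ± 0.54 (SE), edgeR adjusted p = 0.0243), and the clones lay close together. Rspo3 was at 10.7 CPM in PRDX1MT, 0.393 and 0.327 CPM in DKO clones 1 and 5, and 21.6 CPM in WT, 29.3-fold lower in DKO (edgeR adjusted p = 0.041). Ror2 (chr13:53109312-53286124) gave 474, 0 and 0 reads in PRDX1MT and clones 1 and 5, a level at least 401-fold lower in DKO (edgeR adjusted p = 0.0265). The pseudokinase receptor Ptk7 gave 1381, 7 and 0 reads, and was 501-fold lower (edgeR adjusted p = 0.0365). DESeq2 did not make this call, which held in 4 of 8 other settings, against 3 of 8 for Rspo3. Both the antagonist Sfrp1 and the enhancer Rspo3 were therefore low in the DKO clones while WT held 66 and 21.6 CPM of them.

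Of 28 genes on a Wnt list, which does not hold Ror2 or Ptk7, 23 were tested. Sfrp1 and Rspo3 were called, where 0.195% of all genes tested were called lower. Wnt5a, at 18.2 against 5.64 and 4.10 CPM, also passed the size rule. The size rule asks in each clone for a ratio to PRDX1MT of at least 2-fold in the same direction, at least 100 reads in the 2 libraries and a 95% exact binomial interval of the ratio that excludes no change. It covers counting error only, its ratios share the PRDX1MT library, and 0.941% of all genes tested passed it as higher and 2.08% as lower. Both clones were below PRDX1MT for 12 of the 23 genes and above it for 2, with medians of -0.44 in clone 1 and -1.09 in clone 5 on the log2 scale, against -0.02 and 0.00 over all genes tested. For all genes, both clones were below PRDX1MT in 33.1% and above it in 31.0%. The Frizzled receptor Fzd7 was near its PRDX1MT level, at 215 against 160.3 and 165 CPM. Another, Fzd9, is outside the list, was chosen after its values were seen and passed the size rule as lower. It was at 12.2 CPM in PRDX1MT, 0.337 and 0.690 CPM in DKO clones 1 and 5, and 21.6 CPM in WT (edgeR adjusted p = 0.055). The antagonist Sfrp2 set the clones apart, at 6.87 CPM in PRDX1MT, 143 and 9.04 CPM in DKO clones 1 and 5, and 43.6 CPM in WT.

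Guidance ligands and receptors, which steer axons and also migrating mesenchymal cells, include Slit3. This gene (chr11:35121224-35708507), which encodes a secreted ligand of Robo receptors, gave 970, 0 and 0 reads in PRDX1MT and clones 1 and 5, and was at 5.66 CPM in WT. It was at least 821-fold lower in DKO (edgeR adjusted p = 0.0243). Of all genes tested, 0.195% were called lower and 2.08% passed the size rule as lower. Of 34 guidance genes, 32 were tested, 1 was called and 6 passed the size rule as lower in both clones. The 6 were Slit3, the ephrin receptor Epha4 (126, 0 and 0 reads, edgeR adjusted p = 0.053), the semaphorins Sema5a (36.7 against 5.78 and 11.8 CPM) and Sema4d (3.70 against 0.841 and 1.05 CPM), the ephrin Efnb1 (47.1 against 13.2 and 16.7 CPM) and the semaphorin receptor Plxnb1 (83.8 against 38.6 and 16.1 CPM). Sema3c was the one higher in both clones by that rule, at 13.7 CPM in PRDX1MT, 46.4 and 46.6 CPM in DKO clones 1 and 5, and 38.5 CPM in WT. The list medians were -0.53 and -0.66, and the related ligand Slit2 was low in clone 1 only, at 570.1 against 118 and 506 CPM.

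Growth factor, second messenger and lipid genes followed. Gas6 (chr8:13465374-13494490), the secreted ligand of the Tyro3, Axl and Mertk receptors, was at 63.95 CPM in PRDX1MT, 0.701 and 0.254 CPM in DKO clones 1 and 5, and 34.4 CPM in WT. It fell by 126-fold (log2 difference -7.03 ± 0.66 (SE), edgeR adjusted p = 0.0243). Adcy1 (chr11:7063489-7178506), an adenylyl cyclase that makes cyclic AMP, was at 137 CPM in PRDX1MT, 0.869 and 1.67 CPM in DKO clones 1 and 5, and 23.98 CPM in WT. It fell by 113-fold (log2 difference -6.76 ± 0.57 (SE), edgeR adjusted p = 0.0243), with WT between PRDX1MT and the clones. Cers4 (chr8:4493026-4531680), which makes ceramides, gave 755, 0 and 0 reads in PRDX1MT and clones 1 and 5, at least 639-fold lower in DKO (edgeR adjusted p = 0.0243). Of the 5 tested members of its family it was the one called, where 0.195% of all genes tested were called lower. Cers2 and Cers5, which were near PRDX1MT in both clones, were at 79.95 against 98.9 and 84.95 CPM and 68.3 against 86.9 and 85.9 CPM. The uncharacterised 5730409E04Rik (chr4:126609818-126614371) gave 540, 0 and 0 reads, at least 457-fold lower (edgeR adjusted p = 0.0243).

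Matrix and contractile genes were split between a few that fell and more that did not pass the test. Col8a2, a chain of short-chain collagen VIII, was at 48.6 CPM in PRDX1MT, 1.82 and 1.997 CPM in DKO clones 1 and 5, and 23.5 CPM in WT, and fell by 25.6-fold (edgeR adjusted p = 0.0285). Ltbp4, which binds latent TGF-beta and takes part in elastic fibre assembly, was at 13.6 CPM in PRDX1MT, 0.589 and 0.508 CPM in DKO clones 1 and 5, and 16.1 CPM in WT, and fell by 24.5-fold (edgeR adjusted p = 0.0446). Myl9, a regulatory light chain of myosin in smooth muscle and other contractile cells, was at 94.3 CPM in PRDX1MT, 8.02 and 8.93 CPM in DKO clones 1 and 5, and 41.3 CPM in WT, and fell by 11.2-fold (edgeR adjusted p = 0.041). These 3 genes showed clones within a narrow range of each other. The proprotein convertase Pcsk6 gave 2463, 3 and 26 reads and was 216-fold lower (edgeR adjusted p = 0.0461), with the clones apart from each other.

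Of all genes tested, 0.195% were called lower, 2.08% passed the size rule as lower and 0.941% as higher. Of 24 tested collagen genes, 1 was called and 4 passed the size rule as lower. Among the 4 were Col11a1, at 440.2 against 31.97 and 56.7 CPM (462 CPM in WT), and Col12a1, at 2723 against 501 and 698 CPM (869 CPM in WT). The collagen list medians were -0.14 in clone 1 and 0.07 in clone 5, and 0.04 and 0.20 with total-count scaling. Of 21 elastic fibre genes, 3 passed the size rule as lower and 2 as higher. Ltbp2 was at 1452 CPM in PRDX1MT, 186 and 383 CPM in DKO clones 1 and 5, and 482 CPM in WT. Fbn2, a microfibril protein, was at 89.9 CPM in PRDX1MT, 4.26 and 18.5 CPM in the clones, and 242 CPM in WT. Elastin itself, Eln, was at 850.0 CPM in PRDX1MT, 4273 and 2006 CPM in DKO clones 1 and 5, and 35.5 CPM in WT. Fbln2 was at 774 CPM in PRDX1MT, 2177 and 2335 CPM in DKO clones 1 and 5, and 863 CPM in WT. The elastic fibre members thus lay on both sides of PRDX1MT, none of those 4 with an edgeR adjusted p under 0.370. Of 17 tested smooth muscle genes, Myl9 was called, 9 had both clones below PRDX1MT (52.9%, against 33.1% of all genes, and 41.2% against 25.6% with total-count scaling), and Acta2, smooth muscle actin, was at 2246 against 637 and 1305 CPM. Actg2 went the other way, at 1.05 against 2.64 and 24.01 CPM. WT had a median of -0.77 for the smooth muscle list, further below PRDX1MT than the -0.47 of each clone. Summed levels of its 18 genes were 4747 CPM in PRDX1MT, 2782 and 3151 CPM in the clones, and 2421 CPM in WT. PRDX1MT was thus the high library for this list as a whole.

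The called genes Trpv4, Piezo2, Prex2, Tiam1 and Mark1 belong to no list used here and were grouped after their values were seen. Trpv4, a calcium-permeable channel that responds to osmotic and mechanical stimuli, was at 54.8 CPM in PRDX1MT, 4.68 and 4.87 CPM in DKO clones 1 and 5, and 97.3 CPM in WT, and fell by 11.5-fold (edgeR adjusted p = 0.041). Piezo2, a mechanically gated channel, gave 146, 0 and 0 reads and was at least 124-fold lower (edgeR adjusted p = 0.0459). The exchange factors Prex2 and Tiam1, which activate Rac, were at 74.97 against 4.96 and 4.76 CPM and 6.15 against 0.112 and 0.109 CPM and fell by 15.4-fold and 55.5-fold (edgeR adjusted p = 0.0395 and 0.041). Of these 4 genes, Trpv4 and Tiam1 had WT above PRDX1MT, at 97.3 and 16.9 CPM. Mark1, a kinase that loosens microtubule-binding proteins, gave 167, 0 and 1 reads, 424-fold lower with a counting interval of 75.1 to 16860 (edgeR adjusted p = 0.041).

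Transcription factors and an imprinted RNA also fell. Bcl11b, a zinc finger factor best known in T cells, gave 338, 1 and 1 reads, 429-fold lower with a counting interval of 118 to 3559 (edgeR adjusted p = 0.0265). Erg, an ETS factor of endothelium and cartilage, was at 21.6 CPM in PRDX1MT, 0.645 and 0.327 CPM in DKO clones 1 and 5, and 24.1 CPM in WT, and fell by 42.6-fold (edgeR adjusted p = 0.0395). It was the one called member of the endothelial list, whose defining genes Cdh5 and Kdr stood at 0 to 2 reads in every library. Meg3, a maternally expressed imprinted long noncoding RNA of the Dlk1 domain, gave 200, 0 and 0 reads, at least 169-fold lower (edgeR adjusted p = 0.0243), with 103 CPM in WT. Rian, its neighbour in that domain, was at 1.93 CPM in PRDX1MT, 0.0841 and 0 CPM in DKO clones 1 and 5, and 90.9 CPM in WT (edgeR adjusted p = 0.0843). Of 32 tested imprinted genes, 13 (40.6%, against 33.1% of all genes) had both clones below PRDX1MT and 7 (21.9%, against 31.0%) both above. The size rule was passed as lower by 3, Meg3, Peg10 and Sgce, and as higher by 1, Dcn, at 2.53 against 53.3 and 32.5 CPM. Of all genes tested, 2.08% passed it as lower and 0.941% as higher. Peg3 and Mest were low in all 3 edited libraries, at 0.161 CPM in PRDX1MT, 0 and 0 CPM in DKO clones 1 and 5, and 167 CPM in WT and at 1.37 CPM in PRDX1MT, 2.30 and 1.20 CPM in DKO clones 1 and 5, and 240.0 CPM in WT.

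The remaining called genes had diverse roles and are given by their reads or levels, with an edgeR adjusted p between 0.0265 and 0.0461 for each. Nlrx1, a mitochondrial member of the NLR family, was at 18.8 against 0.168 and 0.218 CPM. Mdga1, an adhesion protein of the immunoglobulin superfamily, was at 46.5 against 1.35 and 1.13 CPM, and Igdcc4, of the same superfamily, at 44.1 against 2.69 and 1.71 CPM. These 3 were lower in DKO by folds of 98.9, 37.2 and 19.5. Ogdhl, related to a subunit of 2-oxoglutarate dehydrogenase, was at 9.97 against 0.112 and 0.0363 CPM, and Slc22a17, a receptor for lipocalin, at 10.4 against 0.196 and 0.218 CPM. Casc4, at 22.1 against 0.140 and 0.581 CPM, Ctsh, a lysosomal cathepsin, at 4.94 against 0.0561 and 0.0726 CPM, and Plscr4, a phospholipid scramblase, at 6.15 against 0.112 and 0.0363 CPM, were lower in both clones and at 31.6, 7.97 and 13.1 CPM in WT. The hydrolase Nudt16 gave 245, 0 and 2 reads, Aplp1, of the amyloid precursor family, 201, 0 and 1 reads, the tetraspanin Tspan7 166, 0 and 1 reads, and Lrp3 161, 1 and 0 reads. Krba1, Cnrip1, Fxyd6 and Ranbp17 had 0 reads in both clones and 224, 197, 176 and 175 reads in PRDX1MT, lower in DKO by at least 189.7-fold, 167-fold, 149-fold and 148-fold. Fxyd6, a regulator of the sodium pump, was near absent in WT too, at 0.316 CPM. Kctd12, at 21.2 against 1.26 and 0.908 CPM, shares 64.2% of its exon length with another gene, so its reads are uncertain.

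C1qtnf4 and Casd1 were the genes that rose. C1qtnf4 (chr2:90885860-90890525), which is secreted and has a C1q domain, gave 1, 781 and 315 reads in PRDX1MT and clones 1 and 5, and 0 reads in WT. It was 431-fold higher in DKO with a counting interval of 77.3 to 17060 (log2 difference 8.56 ± 1.12 (SE), edgeR adjusted p = 0.0461). Casd1 (chr6:4600839-4643355), an enzyme that acetylates sialic acids, gave 0, 290 and 214 reads, at least 66.1-fold higher in DKO (edgeR adjusted p = 0.041), and was at 13.6 CPM in WT. So C1qtnf4 was on in DKO and off in the other libraries, while Casd1 was off in PRDX1MT and on in the others. Both calls held in 3 of 8 other settings, DESeq2, no filter on low counts, and removal of mitochondrial and small RNA genes.

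Among genes that passed the size rule as higher without a call, those with the largest ratios include matrix proteins and secreted factors. Of the 19446 genes, 183 (0.941%) passed as higher and 404 (2.08%) as lower, and scaling by total counts gave 269 and 334. In 216 of the 404, WT was 2-fold or more below PRDX1MT, in 171 within 2-fold of it and in 17 above that. WT lay within 2-fold of both clones in 128 of the 404. In 94 of the 183, WT was 2-fold or more above PRDX1MT, in 83 within 2-fold of it and in 6 below that. WT lay within 2-fold of both clones in 81 of the 183. Stmn2, a microtubule regulator of neurons, gave 0, 306 and 1833 reads (edgeR adjusted p = 0.125), and Rgs4, which shortens G-protein signals, 1, 1694 and 219 reads (0.123). Angptl1 and Angptl4, secreted angiopoietin-like proteins of which Angptl4 inhibits lipoprotein lipase, gave 2, 4887 and 241 reads and 0, 487 and 102 reads (edgeR adjusted p = 0.264 and 0.111). In these 4 genes PRDX1MT was the low library, with 0 to 2 reads, and the clones differed from each other by several-fold. WT held 2.38 to 14.0 CPM of them. The matrix proteins Lum, Dcn and Sparcl1 were at 0.0402 against 5.86 and 8.14 CPM, 2.53 against 53.3 and 32.5 CPM and 0.201 against 5.52 and 8.54 CPM (edgeR adjusted p = 0.0739, 0.0841 and 0.129). Spp1, osteopontin, was at 7.68 CPM in PRDX1MT, 112 and 87.9 CPM in DKO clones 1 and 5, and 156 CPM in WT (edgeR adjusted p = 0.0672), and Arhgap6, a GTPase-activating protein, at 1.41 CPM in PRDX1MT, 42.8 and 25.9 CPM in DKO clones 1 and 5, and 9.06 CPM in WT (0.0653). Pcdhga3 was at 0.241 against 6.87 and 3.56 CPM, and shares exons with other protocadherins of its cluster.

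**Figure D2:**
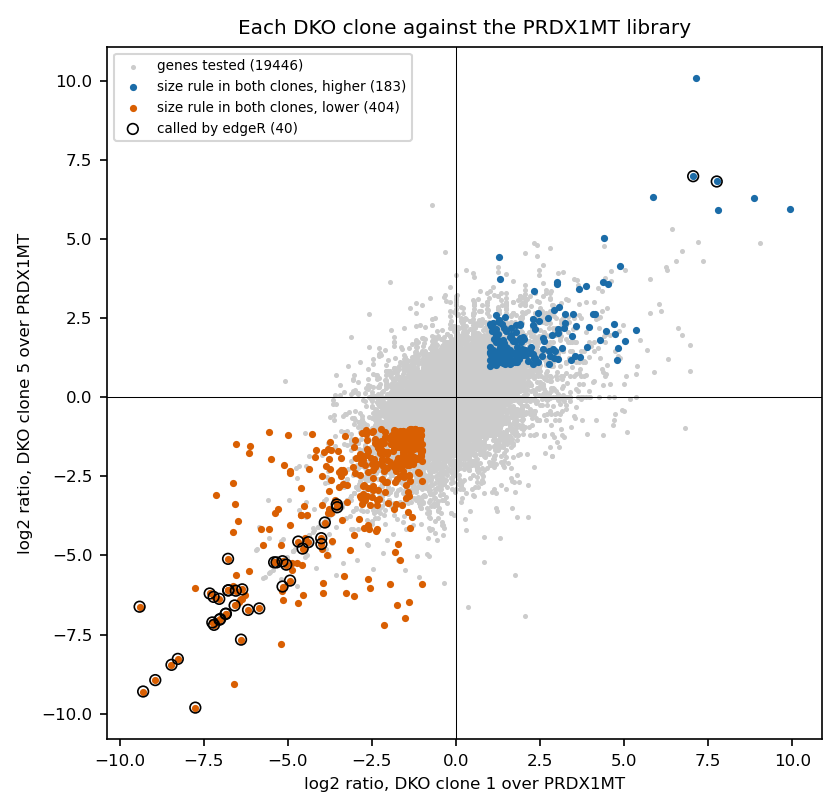
Log2 ratio of each gene in DKO clone 1 (x axis) and DKO clone 5 (y axis) to the same PRDX1MT library. Blue and orange points pass the size rule in both clones as higher (183) and lower (404), and black rings mark the 40 genes called by edgeR, 38 of them at the lower left.

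The clones did not move as one. Clone 1 alone gave 1015 genes past the size rule as higher and 854 as lower, clone 5 alone 702 and 964, and 587 passed in both in the same direction. A further 1228 passed in clone 1 only and 1025 in clone 5 only. In 54 genes the clones passed in opposite directions, 43 of them with clone 1 higher. Proliferation genes show such a split, the median over 34 genes being -0.37 for clone 1 and 0.99 for clone 5. Immediate-early genes show the reverse, 0.42 and -1.41 over 24 genes, and none of either list passed the size rule in both clones. Lpl, lipoprotein lipase, chosen after its values were seen, was at 1.49 CPM in PRDX1MT, 172 and 0.726 CPM in DKO clones 1 and 5, and 1.60 CPM in WT.

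Genes that were off on one side and on on the other made up a short list. Off means at most 2 reads and on means at least 50, in each clone where the clones are meant. By that rule 39 genes (0.201% of those tested) were off in both clones and on in PRDX1MT, and 12 (0.0617%) the reverse. Of the 39, 22 had 0 reads in both clones, 17 were called, and 35 held at least 50 reads in WT, none at most 2. Besides the genes given above they include Khdrbs3, Lmo1, F11r and Thsd7a, which were chosen after their values were seen and gave 127, 130, 134 and 94 reads in PRDX1MT with 0 to 2 in the clones. Of the 12, Ctsf, a cathepsin, gave 1, 529 and 82 reads, and Medag 1, 338 and 54 reads. Exons of Medag overlap those of another gene along 36.7% of their length, so its reads are uncertain. C1qtnf4 was the one of the 12 with at most 2 reads in WT.

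Neighbouring genes were read around Prdx1, Casd1 and Lum. Mmachc, which lies past the end of Prdx1 on the other strand and is read towards it, was at 16.8 CPM in PRDX1MT, 6.03 and 13.5 CPM in DKO clones 1 and 5, and 11.1 CPM in WT. Both clones were below PRDX1MT, clone 5 by less than clone 1, and the gene passed neither the size rule nor the test (log2 difference -0.79 ± 0.62 (SE), edgeR adjusted p = 1). Ccdc163, which starts beside the start of Mmachc and is read away from it on the strand of Prdx1, was at 44.8 CPM in PRDX1MT, 2.78 and 7.92 CPM in DKO clones 1 and 5, and 5.91 CPM in WT, with PRDX1MT the highest of the libraries. It was 8.94-fold lower in DKO (log2 difference -3.07 ± 0.66 (SE), edgeR adjusted p = 0.225). Tesk2, also on that strand, was at 31.6 CPM in PRDX1MT, 10.7 and 16.02 CPM in DKO clones 1 and 5, and 13.1 CPM in WT, and Hpdl at 3.78 CPM in PRDX1MT, 0.533 and 1.63 CPM in DKO clones 1 and 5, and 1.24 CPM in WT. Akr1a1, upstream of Prdx1, was at 319.9 against 363 and 379.5 CPM, near even. Exons of Ccdc163, Tesk2 and Toe1 overlap those of other genes along 16.1%, 37.9% and 40.7% of their length, so their reads are uncertain. Of the 12 genes of this neighbourhood, Prdx1 passed the size rule as higher, Ccdc163 and Hpdl as lower, and none was called.

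Casd1 lies beside Sgce and Peg10, a pair of paternally expressed imprinted genes. Sgce was at 34.9 CPM in PRDX1MT, 2.55 and 12.9 CPM in DKO clones 1 and 5, and 33.1 CPM in WT, and Peg10 at 28.4 CPM in PRDX1MT, 0.224 and 4.25 CPM in DKO clones 1 and 5, and 57.2 CPM in WT. Here the DKO clones were low for Sgce and Peg10 and held Casd1, while PRDX1MT held Sgce and Peg10 and had 0 reads of Casd1 (edgeR adjusted p = 0.902 for Sgce and 0.693 for Peg10). Col1a2, on the other side of Casd1, was at 8531 CPM in PRDX1MT and 7794 and 13850 CPM in the clones. A second run of neighbours holds small leucine-rich proteoglycan genes of chromosome 10, none of which was called. Dcn was at 2.53 CPM in PRDX1MT, 53.3 and 32.5 CPM in DKO clones 1 and 5, and 2.84 CPM in WT, Lum at 0.0402 CPM in PRDX1MT, 5.86 and 8.14 CPM in DKO clones 1 and 5, and 0.851 CPM in WT and Epyc at 0.0402 CPM in PRDX1MT, 2.08 and 2.72 CPM in DKO clones 1 and 5, and 1.07 CPM in WT. Both clones lay above PRDX1MT for these 3 genes, Dcn and Lum passed the size rule and Epyc did not (edgeR adjusted p = 0.0841, 0.0739 and 0.225). Exons of Epyc overlap those of another gene along 40.7% of their length, so its reads are uncertain. Kera, between Lum and Epyc, had at most 1 read in each library. The flanking genes Btg1 and Atp2b1 were at 140 and 175 CPM in PRDX1MT, and at 157 and 140 CPM in clone 1 and 89.4 and 208 CPM in clone 5.

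**Figure D3:**
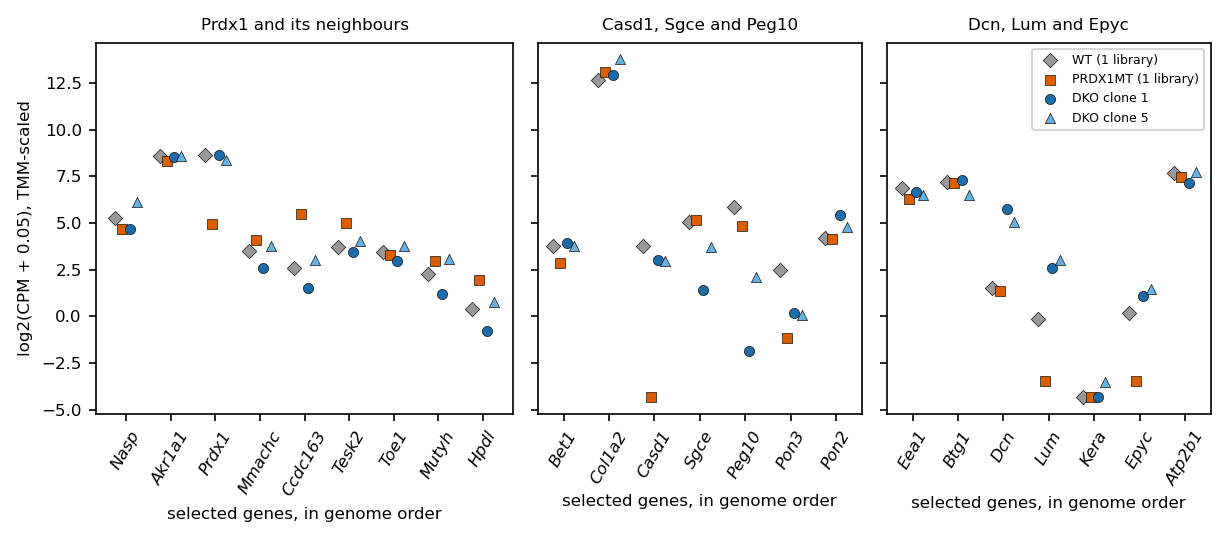
Level of selected genes, in genome order, around Prdx1, Casd1 and Dcn, as log2 of TMM-scaled CPM plus 0.05 in each library. PRDX1MT (square) is low for Prdx1 and Casd1 and high for Ccdc163, and both DKO clones (circle and triangle) are high for Dcn, Lum and Epyc and low for Sgce and Peg10.

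In the machinery of DNA methylation, no gene other than Dnmt3a held the same direction by the size rule in both clones. Of 17 tested genes, 5 had both clones above PRDX1MT and 5 both below (9 and 4 with total-count scaling), and none was called. Dnmt1, the maintenance enzyme, was at 203 CPM in PRDX1MT, 112 and 275 CPM in DKO clones 1 and 5, and 148 CPM in WT, and its partner Uhrf1 at 145 CPM in PRDX1MT, 90.5 and 368 CPM in DKO clones 1 and 5, and 98.7 CPM in WT, each low in clone 1 and high in clone 5. The Tet enzymes, which oxidise methylated cytosine, were at 15.5 against 10.2 and 6.32 CPM for Tet1, 35.3 against 58.6 and 21.4 CPM for Tet2 and 97.8 against 184 and 140.0 CPM for Tet3. Tet1 was below PRDX1MT in both clones and Tet3 above it, none with an edgeR adjusted p under 1. Of 24 germline genes that promoter methylation keeps silent in somatic cells, 7 were tested, none passed the size rule, and their summed level was 4.74 CPM in PRDX1MT and 5.75 and 4.58 CPM in the clones.

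Pathways of peroxide, cobalamin and respiratory chemistry gave no called gene. Of 27 tested peroxiredoxin and antioxidant genes, 13 (48.1%, against 31.0% of all genes) had both clones above PRDX1MT and 4 (14.8%, against 33.1%) both below, and Prdx1 was the one past the size rule. Of 19 cobalamin and one-carbon genes, 7 (36.8%) lay above and 4 (21.1%) below, with none past the rule. The 13 mitochondrially encoded messages were above PRDX1MT in both clones, 13 of 13 against 31.0% of all genes, with medians of 1.68 and 0.93. mt-Nd2 was at 234 CPM in PRDX1MT, 1152 and 483 CPM in DKO clones 1 and 5, and 963 CPM in WT, and mt-Co1 at 1578 CPM in PRDX1MT, 5870 and 2664 CPM in DKO clones 1 and 5, and 4367 CPM in WT. PRDX1MT was the low library for both, no gene of the list had an edgeR adjusted p under 0.927, and several of its members share sequence with nuclear copies. The 25 tested nuclear genes of the respiratory chain had medians of 0.12 and 0.04.

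Of 24 sterol synthesis genes none was called. Both clones were below PRDX1MT for 21 of them (87.5%, against 33.1% of all genes) and above it for none, with medians of -0.27 and -1.16. Scaling by total counts, which moves the median of all genes by more than 0.1, to 0.14 in clone 1 and 0.12 in clone 5, left 15 of the 24 below in both clones (62.5%, against 25.6% of all genes), with list medians of -0.09 and -1.02. Lss, lanosterol synthase, was at 171 CPM in PRDX1MT, 81.5 and 58.4 CPM in DKO clones 1 and 5, and 177 CPM in WT. It was 1 of 4 genes of the list past the size rule as lower, which 2.08% of all genes tested passed. The smallest edgeR adjusted p of the 4 was 0.716. Of 13 tested Notch genes, the receptor Notch3 (95.6 against 17.1 and 16.2 CPM, edgeR adjusted p = 0.0987) and the target Hey1 (50.5 CPM in PRDX1MT, 11.6 and 7.88 CPM in DKO clones 1 and 5, and 2.28 CPM in WT, 0.205) passed the size rule as lower, and the others did not.

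Genes of the lineages this cell line can enter were mixed. Of all genes tested, 0.941% passed the size rule as higher and 2.08% as lower. Of 16 adipogenic genes, Pparg, the master regulator of fat cells, and Dgat2 passed the size rule as higher, at 16.6 against 50.1 and 36.6 CPM and 8.24 against 72.96 and 24.1 CPM, and the regulator Cebpa as lower, at 59.8 against 8.16 and 10.8 CPM (edgeR adjusted p = 0.107). Of 17 chondrogenic genes Sox6 passed as higher, at 2.41 CPM in PRDX1MT, 54.2 and 10.5 CPM in DKO clones 1 and 5, and 41.5 CPM in WT, and of 10 osteogenic genes Spp1 did. Among 6 tested muscle genes Acta1, skeletal actin, passed as lower, at 7.03 against 0.449 and 2.22 CPM. Besides Spp1, none of these had an edgeR adjusted p under 0.107. Of 10 tested Hox genes, 9, all of the Hoxa cluster on chromosome 6, were above PRDX1MT in both clones (90%, against 31.0% of all genes and 57.6% of those on chromosome 6), and the tenth, Hoxc13, had 1 to 3 reads in the 3 edited libraries. None was called, and Hoxa2 alone passed the size rule, at 7.999 CPM in PRDX1MT, 16.7 and 17.03 CPM in DKO clones 1 and 5, and 17.03 CPM in WT.

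**Figure D4:**
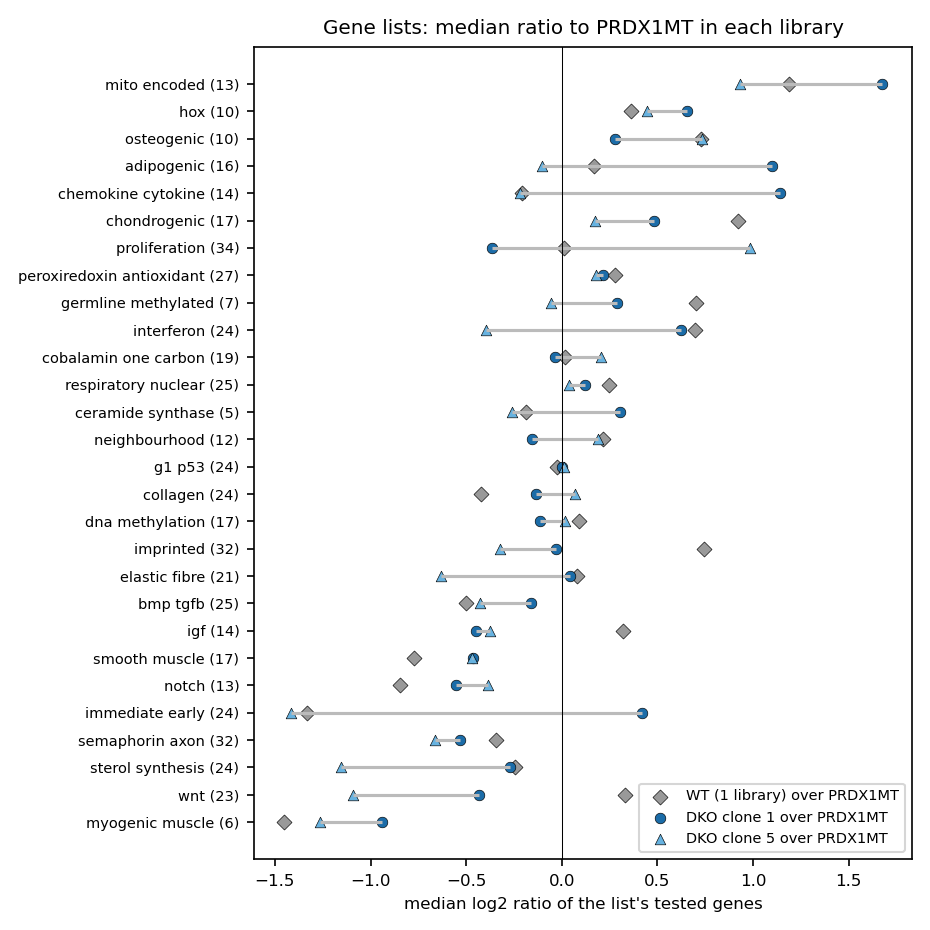
Median log2 ratio to PRDX1MT of the tested genes of each list (number in brackets) in DKO clone 1, DKO clone 5 and WT, which share the PRDX1MT library. The mitochondrially encoded list is highest, with 1.68 and 0.93 in the clones, and bars between the clones are long for the immediate-early and proliferation lists.

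Position along the genome also went with direction. The median log2 ratio of the 1048 tested genes of chromosome 6 was 0.47 in both clones, and that of the 1107 genes of chromosome 9 was -0.39 in clone 1 and -0.41 in clone 5. Both clones lay above PRDX1MT for 57.6% of genes on chromosome 6, against 31.0% of all genes, and below it for 59.7% on chromosome 9, against 33.1%. WT, compared with the same library, stood at 0.25 on chromosome 6 and -0.23 on chromosome 9. Of 19446 genes tested, 1048 lay on chromosome 6 and 1107 on chromosome 9. Of the size-rule genes, 38 of the 183 higher ones lay on chromosome 6 and 55 of the 404 lower ones on chromosome 9. Of the 38 called genes that fell, 6 lay on chromosome 9, Fxyd6, Nudt16, Nlrx1, Ctsh, Plscr4 and Igdcc4. Chromosomes 7 and 11 held 4 each. Clone 5 alone was raised on chromosomes 4 and 16, with medians of 0.35 and 0.32 against -0.05 and 0.06 in clone 1. DNA copy number was not measured, and its part in these ratios was not tested. With each ratio taken from its chromosome's median, an alternative chosen after the data were seen, 154 genes passed the size rule as higher and 389 as lower.

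**Figure D5:**
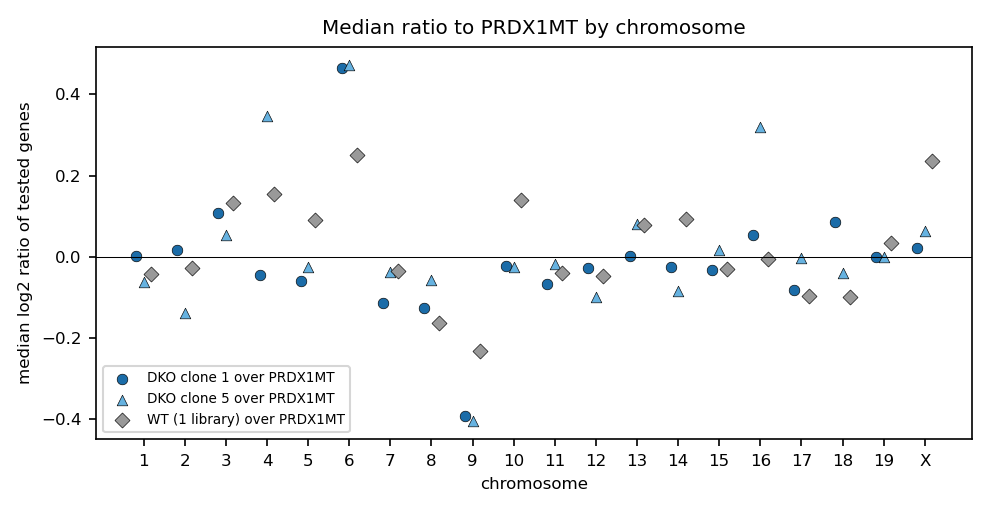
Median log2 ratio to PRDX1MT of the tested genes on each chromosome for DKO clone 1, DKO clone 5 and WT. Both clones are highest on chromosome 6 (0.47) and lowest on chromosome 9 (-0.39 and -0.41), and clone 5 is also high on chromosomes 4 and 16.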

How the data were processed

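RNA of 4 C3H10T1/2 libraries was depleted of ribosomal RNA and prepared with a stranded kit, per the labels' protocols. STAR 2.6.1d and mm10 are named in the submitters' processing notes. How reads were assigned to genes, and with which annotation and strand option, is not given in the sources used here, so overlapping and antisense genes, and genes with near-identical copies, are uncertain. The deposited files hold raw counts, 1 whole number per gene and library. Of 54532 gene identifiers, 54495 were found in GENCODE M21, and the 37 left unnamed took no more than 0.00463% of any library.

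The main test was the quasi-likelihood test of edgeR 4.0.16 in R 4.3.3, with TMM factors and the filterByExpr filter, over 19446 genes and 3 groups in all 4 libraries. P-values were adjusted by Benjamini-Hochberg over those genes, with a threshold of 0.05. The common dispersion was 0.187, with 6.54 prior degrees of freedom. The residual degree of freedom, 1, comes from the clones, whose spread stands for that of the PRDX1MT and WT libraries too. Clone ratios are differences of log2 CPM with a prior count of 2. Folds are ratios of pooled counts over pooled effective library sizes. Against 0 reads they are lower bounds from 3 counts over the group, given as "at least", which leave out counting error on the other side. The 95% exact binomial interval starts lower, at 325-fold against 401-fold for Ror2 and 667-fold against 821-fold for Slit3. With 1 to 3 counts, folds have a 95% exact binomial interval. Intervals and floors cover counting error only, because amplified reads with no molecular identifier need not be separate molecules. DESeq2 1.42.0, other scalings and filters, and each clone left out were alternatives. The scripts were tested on simulated data.

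The members, the 34 gene lists and the rules were chosen with earlier results of these data known. Named genes were all called genes that rose, the 15 protein-coding called genes that fell most, the 12 protein-coding genes highest by the size rule, up to 3 size-rule members per list, all genes of the Prdx1 neighbourhood and of DNA methylation (those described in the text), and up to 10 genes a direction that were off on one side. Other named genes, among them Gas6, Adcy1, the channels, Eln, Fbln2, Acta2, Rian, Sgce, Peg3, Mest, Lpl and those of the paragraph on remaining calls that lie outside the rule, and the 5 promoters, were chosen after their values were seen. A few genes are not reported here.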

Additional observations from a re-analysis of the deposited data

How the results depend on the processing

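The number of called genes depended on the settings. DESeq2 called 213 genes (60 higher, 153 lower, 39 shared with the 40), and no filter on low counts gave 404 (137 higher, 267 lower, all 40 among them). Median-of-ratios factors gave 13 calls, total counts 7, only the 3 libraries compared 11, and a test against a 2-fold change 15, all of them lower in DKO and all among the 40. With only genes at 1 CPM in 2 libraries kept, edgeR called 0, although 530 had an unadjusted p under 0.05 (912 in the reported fit), and the smallest adjusted p was 0.14. Removing mitochondrial and small RNA genes left the same 40. The size rule gave 193 genes at 4-fold (38 higher, 155 lower), 1306 at a minimum of 20 reads, 207 at 500 reads, and 1666 to 1869 genes with 1 clone left out, since 1 clone then has to pass alone. Median-of-ratios factors, total counts, prior counts of 0.5 and 5 and chromosome medians gave 543 to 603. The count of genes off on one side went from 51 to 115 with at least 20 reads on the other side and to 32 with at least 100, both added after the data were seen. The cause was not tested, except that stricter minimums leave fewer genes that can pass. Direction was checked for 64 genes, those named as called, as highest by the size rule or as size-rule list members, and none reversed. With 1 clone left out none could, because all 64 were picked with both clones on the same side of PRDX1MT. Under the other settings a reversal was unlikely too, since each clone was at least 2-fold from PRDX1MT. The check left out the other genes of the Prdx1 neighbourhood and of DNA methylation, and other genes off on one side. Among those left out, Dnmt1 and Uhrf1 were below PRDX1MT in clone 1 and above it in clone 5. Total counts turned the sign of small list medians, as for collagen (-0.14 to 0.04) and DNA methylation (-0.11 to 0.07) in clone 1, and of the median of all genes (-0.02 to 0.14 in clone 1). No paired analysis was possible because PRDX1MT has 1 library and shares no replicate number with both clones. With 1 clone left out there are no residual degrees of freedom, so edgeR calls were not counted there. Depth limits genes near 3 reads, 0.0729 to 0.121 CPM.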
